A study of Homo sapiens with 6 samples.

Results

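The S100 genes encode a family of small calcium-binding proteins, and 10 of them were examined in SUM-159 cells that carried SH3GL2 or an empty vector. They are S100A2, S100A3, S100A4, S100A6, S100A8, S100A9, S100A10, S100A11, S100A13 and S100P. All probe sets that the array's annotation assigns to 1 of these symbols were taken, which gave 12 of the 22215 probe sets tested and 10 of the 11963 genes that had a probe set for them alone. The genes were chosen with the difference between the groups known, because S100A2 had a higher and S100A4 a lower signal in SH3GL2 cells. The values of the 12 probe sets are therefore given as a description, and the number that passed the fit over all probe sets is given once, as a description too.

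S100 proteins form dimers, and each subunit holds a pair of EF-hand loops that bind calcium. Calcium opens a cleft on the protein through which it holds a target such as an annexin, a myosin heavy chain or tropomyosin. Some members are also released from cells and act on receptors such as AGER, also called RAGE, and TLR4. In breast cancer S100A4 is best known for its link to invasion and metastasis, whereas S100A2 is a protein of the basal epithelium that is often lost in tumors.

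SUM-159 is an established triple negative breast cancer line, which lacks the estrogen and progesterone receptors and amplified HER2. The SH3GL2 cells (genotype labelled SH3GL2 overexpression) were stably transfected with SH3GL2, which encodes the membrane-bending protein endophilin A1, and the empty vector cells (genotype labelled control) with the same plasmid backbone. Stable clones were kept in G418, their number is not given, and what is particular to a clone cannot be told apart from SH3GL2. The question was which genes lie downstream of SH3GL2, and the RNA of each group was put on 3 Affymetrix GeneChip arrays. The sources do not say whether the triplicates were separate cultures, so the p-values measure only the spread between these arrays, which may be technical, and their number limits the precision.

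The deposited values are log2 signals with array medians of 6.98 to 7.03. The signal to be had without a transcript was read from 86 probe sets of 52 genes that belong to other organs, such as liver and eye. Their median was 5.04, and their 95th percentile, 7.13, is called the reference limit from here on. The probe set of SH3GL2 itself had 3.26 ± 0.09 in SH3GL2 cells and 3.22 ± 0.04 in empty vector cells (SD, n = 3 each), both under the median of those probe sets. At a log2 fold change of 0.03 it did not show the overexpression that the labels give, and why was not tested. The paper reports SH3GL2 overexpression in SUM-159 cells apart from the arrays. Of the markers expected in SUM-159, VIM, CD44, CAV1 and EGFR lay above this limit in both groups, and ESR1, PGR, FOXA1 and EPCAM below it in both. ERBB2 (means of 8.45 in SH3GL2 cells and 8.50 in empty vector cells) and GATA3 (9.27 and 9.57) were expected to be low and lay above it. CAV1 fell by 0.30 (SE 0.05, adjusted p = 0.00267 from limma).

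The signals of S100A2 and S100A4 differed between the groups in opposite directions. S100A2 had log2 signals of 11.50, 11.91 and 11.53 in SH3GL2 cells, against 10.13, 10.39 and 10.24 in empty vector cells. Every SH3GL2 array was above every empty vector array, and the means were 11.65 ± 0.23 and 10.25 ± 0.13 (SD, n = 3 each), a log2 fold change of 1.39 (SE 0.10), or a 2.63-fold higher signal. Among all 22215 probe sets this was the increase of rank 15. S100A4 had log2 signals of 9.82, 10 and 9.92 in SH3GL2 cells, against 10.79, 11.02 and 10.84 in empty vector cells. Here every SH3GL2 array was below every empty vector array, with means of 9.91 ± 0.09 and 10.88 ± 0.12 (SD, n = 3 each), a log2 fold change of -0.97 (SE 0.07), or a 1.96-fold lower signal, at rank 36 of the decreases. Both genes lay above the reference limit in both groups. In bulk RNA a change in the share of cells that make a transcript and a change in its amount per cell cannot be told apart.

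S100A2 and S100A4 are neighbours on chromosome 1, on the same strand and 15302 bases apart, with S100A3 between them. The 250 bases before the annotated start of each of the 3 genes are shown because S100A2 and S100A4 differed in opposite directions while S100A3, between them, differed by 0.04 on the log2 scale (RefSeq, GRCh38.p14, minus strand, 5′ to 3′). For S100A2, which has 2 annotated starts, the one farther upstream was used. Capitals mark matches to TATAAA, to TGANTCA (the AP-1 motif), to CACCTG (the E-box that ZEB and SNAI repressors bind) or to GGGCGG (the GC box), each searched on both strands, and no match overlaps another.
S100A2 (chr1:153565845-153566094): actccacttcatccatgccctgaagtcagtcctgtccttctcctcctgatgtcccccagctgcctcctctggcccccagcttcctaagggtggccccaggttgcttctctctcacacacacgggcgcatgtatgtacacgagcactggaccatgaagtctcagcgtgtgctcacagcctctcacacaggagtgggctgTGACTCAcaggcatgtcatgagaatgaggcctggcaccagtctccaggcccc
S100A3 (chr1:153549259-153549508): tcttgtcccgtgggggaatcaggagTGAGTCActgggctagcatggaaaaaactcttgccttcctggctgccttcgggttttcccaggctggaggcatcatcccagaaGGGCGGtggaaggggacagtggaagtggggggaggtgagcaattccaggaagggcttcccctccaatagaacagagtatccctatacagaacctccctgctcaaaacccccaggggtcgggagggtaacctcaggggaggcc
S100A4 (chr1:153545807-153546056): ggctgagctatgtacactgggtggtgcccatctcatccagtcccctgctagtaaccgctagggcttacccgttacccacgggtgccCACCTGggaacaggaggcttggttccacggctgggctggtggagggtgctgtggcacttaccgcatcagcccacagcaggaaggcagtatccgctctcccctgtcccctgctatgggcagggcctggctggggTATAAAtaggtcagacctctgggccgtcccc
The S100A2 window held TGACTCA, which begins 52 bases before the start, and none of the other motifs. The S100A4 window held TATAAA at 31 bases and CACCTG at 164 bases before the start, and the S100A3 window held TGAGTCA at 225 and GGGCGG at 142 bases. Of 35116 such windows in the RefSeq table, 10.7% held TATAAA, 6.57% held TGANTCA, 17.5% held CACCTG and 42.6% held GGGCGG. A match describes the letters and does not show that a factor binds there.

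**Figure D1:**
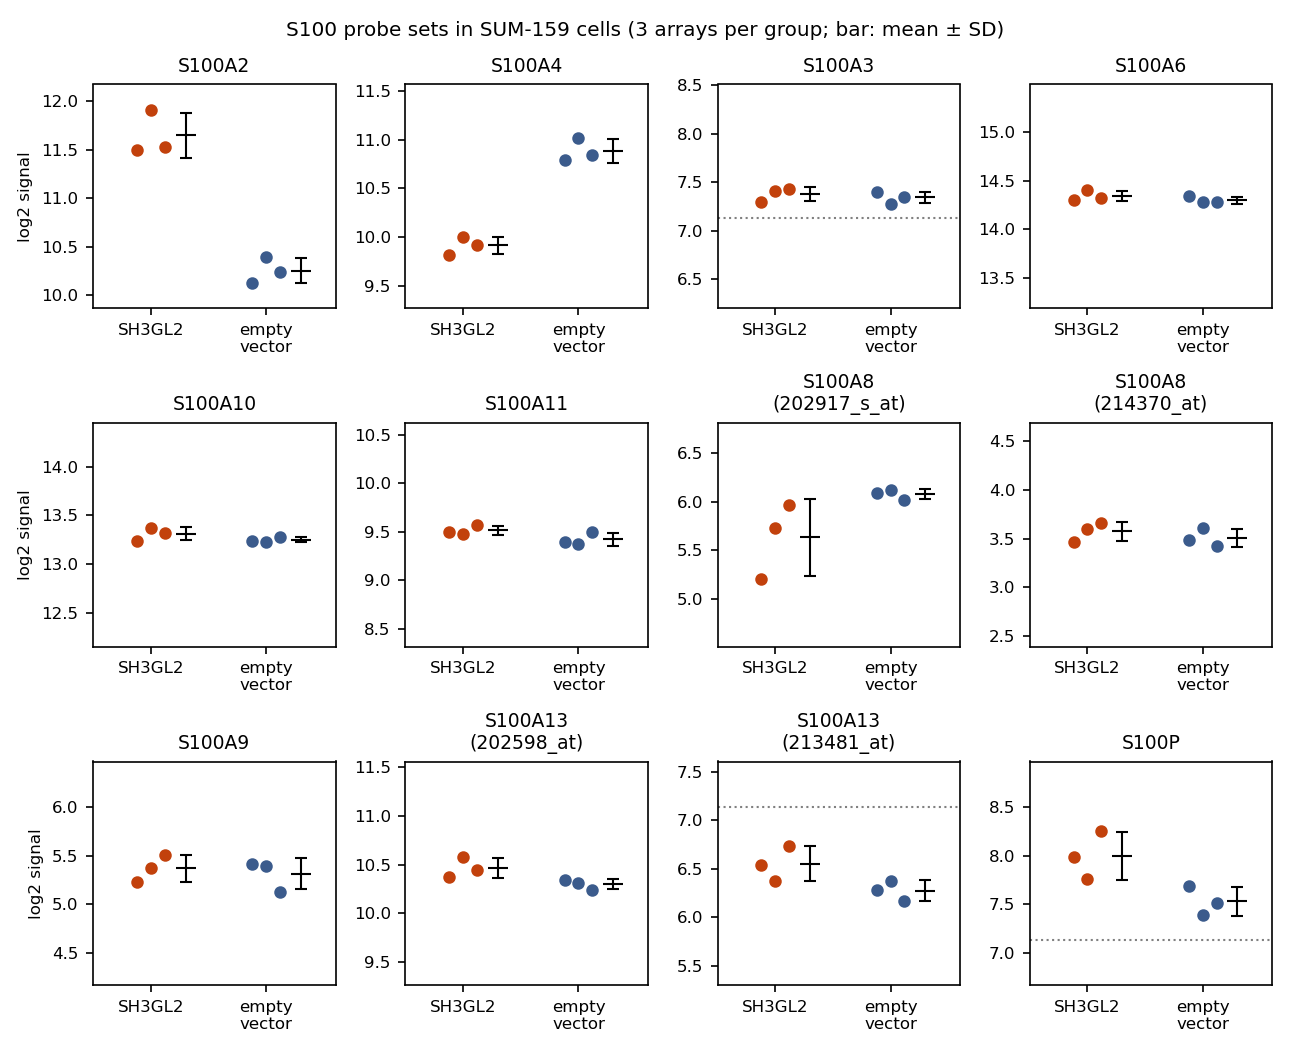
Log2 signal of the 12 S100 probe sets, with 1 point per array, SH3GL2 left and empty vector right, and bars for mean and SD (n = 3). Each panel spans the same number of log2 units, and a dotted line marks the reference limit (7.13) where it falls in the panel. The S100A2 points lie at 11.50 to 11.91 in SH3GL2 cells and 10.13 to 10.39 in empty vector cells, and the S100A4 points at 9.82 to 10 and 10.79 to 11.02.

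S100A3, a protein of the hair cuticle, had 7.30, 7.41 and 7.43 in SH3GL2 cells, against 7.40, 7.28 and 7.35 in empty vector cells. The groups overlapped, and the log2 fold change was 0.04 (SE 0.08). S100A6, or calcyclin, which binds the ubiquitin ligase adaptor CACYBP, had 14.30, 14.40 and 14.32 in SH3GL2 cells, against 14.34, 14.28 and 14.28 in empty vector cells. Its arrays overlapped too, at a log2 fold change of 0.04 (SE 0.04), with a signal near the top of the scale, which ended at 15.31. How far such bright probe sets still respond to more RNA was not tested.

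S100A10, the light chain of the annexin A2 complex at the plasma membrane, does not itself respond to calcium. It had 13.24, 13.37 and 13.32 in SH3GL2 cells, against 13.24, 13.23 and 13.28 in empty vector cells, a log2 fold change of 0.06 (SE 0.04) with overlapping groups. S100A11, which binds annexin A1, had 9.50, 9.48 and 9.57 in SH3GL2 cells, against 9.40, 9.37 and 9.50 in empty vector cells, again overlapping (0.09, SE 0.07). In these 4 genes the arrays of the groups were thus intermingled.

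S100P, first found in placenta and known to bind ezrin, had 7.99, 7.76 and 8.25 in SH3GL2 cells, against 7.69, 7.39 and 7.51 in empty vector cells. All SH3GL2 arrays were higher, with a log2 fold change of 0.47 (SE 0.12), or 1.39-fold. It is the only one of the 10 genes that lies outside chromosome 1, on chromosome 4. S100A13, which takes part in the release of FGF1 and interleukin 1 alpha, was measured by 2 probe sets. On the brighter it had 10.37, 10.58 and 10.44 in SH3GL2 cells, against 10.34, 10.31 and 10.24 in empty vector cells, which did not overlap but lay within 0.03 of each other at the closest, a log2 fold change of 0.17 (SE 0.07). Its other probe set, below the reference limit, pointed the same way (0.28, SE 0.11), and its groups touched at 6.38.

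S100A8 and S100A9 form calprotectin, a heterodimer made mainly by neutrophils and monocytes and, under stress, by squamous epithelium. Neither exceeded the reference limit in either group. On its brighter probe set S100A8 had 5.20, 5.73 and 5.97 in SH3GL2 cells, against 6.09, 6.12 and 6.02 in empty vector cells. The SH3GL2 arrays were all lower, and SH3GL2 replicate 1 was the lowest, with a log2 fold change of -0.44 (SE 0.16), or -0.23 without that array. The other S100A8 probe set lay below the median of the reference genes in both groups and had 0.07 (SE 0.09). S100A9 had 5.23, 5.37 and 5.51 in SH3GL2 cells, against 5.42, 5.39 and 5.13 in empty vector cells, a log2 fold change of 0.06 (SE 0.11) whose sign turned without SH3GL2 replicate 3 (-0.01) or empty vector replicate 3 (-0.04). None of 12 leukocyte markers exceeded the limit in either group, and their higher group means ran from 3.41 for LYZ to 6.32 for CD79A.

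In the limma fit over all probe sets, 3 of the 12 S100 probe sets passed at an adjusted p under 0.05, S100A2 and S100P higher and S100A4 lower, beside 4.17% of all 22215 probe sets (1.99% higher and 2.18% lower). S100P was near that threshold (adjusted p = 0.0452 from limma), and its call depended on the setting. Groups did not overlap at 5 of the 12, beside 19.4% of all probe sets. The same contrast chose the genes, so nothing is read from these counts. The median log2 fold change was 0.07 over the 12 probe sets and 0.01 over all.

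S100A2 was set against the other S100 probe sets within an array, where any difference in scale between arrays cancels. The higher signal of S100A2, for which it was chosen, enters each of these ratios, so they are a description. Relative to the empty vector mean, the log2 ratio of S100A2 to S100A4 was 2.31, 2.54 and 2.24 in SH3GL2 cells, and -0.03, 0.00 and 0.03 in empty vector cells. The ratio was thus 5.15-fold higher in SH3GL2 cells, a difference of 2.36 on the log2 scale (SE 0.09). Its spread in empty vector cells was smaller than that of either gene alone, and replicate 2 was the highest empty vector array for both genes. The difference of the ratio was 1.36 (SE 0.16) against S100A3, 1.35 (SE 0.14) against S100A6, 1.33 (SE 0.13) against S100A10 and 1.30 (SE 0.18) against S100A11. Against S100P it was 0.92 (SE 0.31), and the SH3GL2 arrays ran from 0.56 to 1.43 and the empty vector arrays from -0.28 to 0.28.

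**Figure D2:**
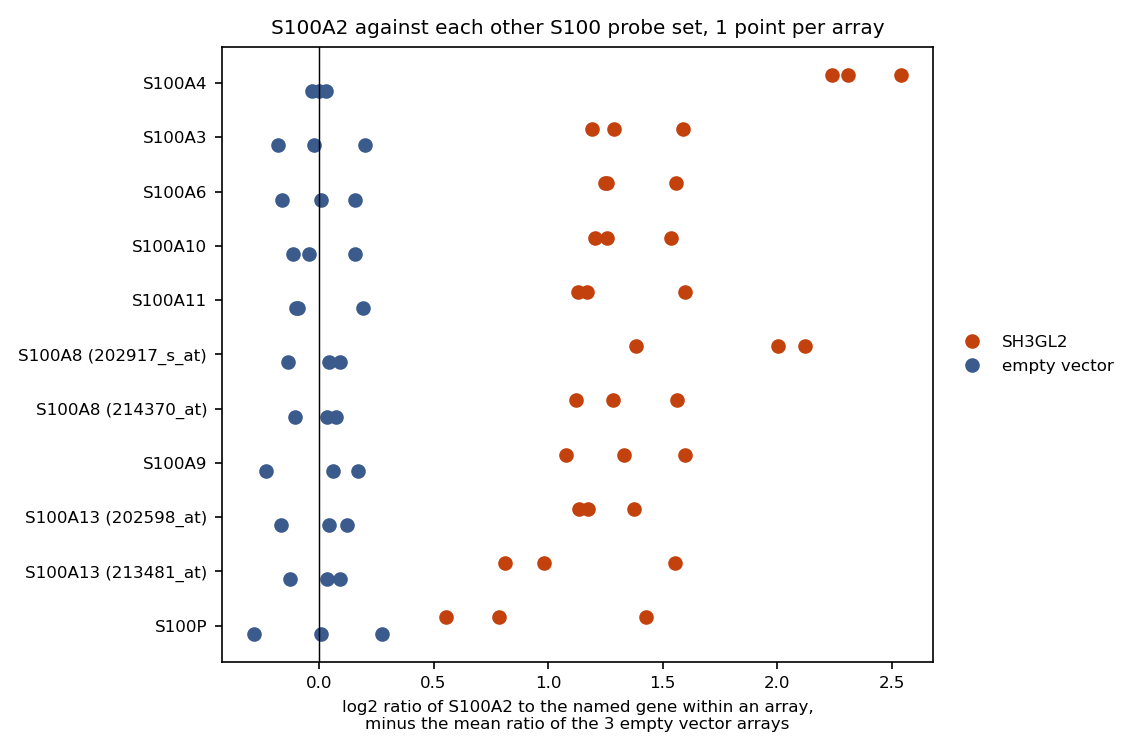
Log2 ratio of S100A2 to each other S100 probe set within an array, relative to the mean of the 3 empty vector arrays, with 1 point per array, SH3GL2 above empty vector in each row. The SH3GL2 points lie at 2.24 to 2.54 for S100A4 and at 0.56 to 1.43 for S100P. The higher S100A2 signal enters every row, and both S100A8 probe sets, S100A9 and the dimmer S100A13 probe set are below the reference limit in both groups.

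On the array 14 S100 genes of chromosome 1 had a probe set of their own, and 7 of them exceeded the reference limit in at least 1 group. Along the chromosome the run S100A6, S100A5, S100A4, S100A3, S100A2, S100A14 and S100A13 had log2 fold changes of 0.04, 0.01, -0.97, 0.04, 1.39, 0.07 and 0.17. The 2 large values thus stood singly among values near 0. The annotated ends of S100A4 and S100A5 overlap, and S100A1 lies within S100A13. S100A5, S100A14 and S100A1 were below the reference limit in both groups, where a value near 0 does not show that a gene was unchanged. S100A3 lay just above the limit, with means of 7.38 in SH3GL2 cells and 7.34 in empty vector cells.

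**Figure D3:**
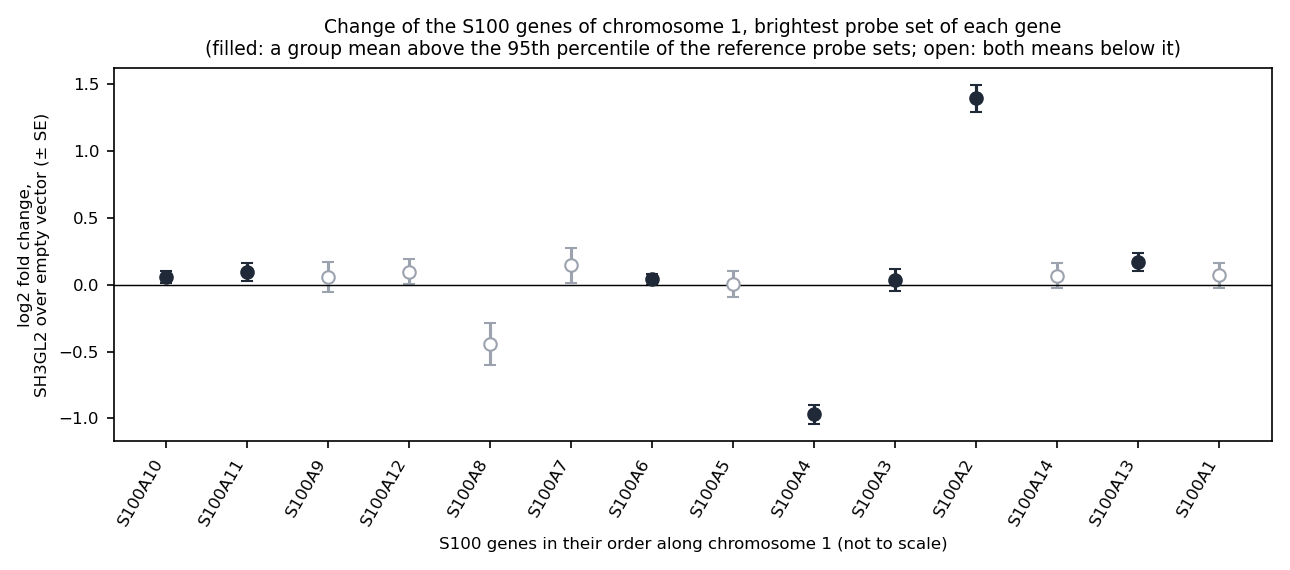
Log2 fold change (SH3GL2 over empty vector) with its SE for the 14 S100 genes of chromosome 1 in their order along it, on the brightest probe set of each. Filled points exceed the reference limit of 7.13 in at least 1 group, and open points do not. S100A2 lies at 1.39, S100A4 at -0.97 and the dim S100A8 at -0.44, with the rest between 0.01 and 0.17.

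The other S100 genes on the array were S100A1, S100A5, S100A7, S100A12, S100A14, S100B and S100G, and 0 of these 7 passed limma (0 by an analysis of variance run probe set by probe set, and 0 had an unadjusted p under 0.05), beside 4.90% of all genes on 1 probe set each. Their log2 fold changes ran from 0.01 for S100A5 to 0.14 for S100A7 (SE 0.13, adjusted p = 0.683). None of them exceeded the reference limit in either group. The 4.90% covers genes of all signals, and the share called among genes under the limit was not computed.

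Proteins that bind S100 proteins, receive them outside the cell or leave the cell with them were listed as 40 measured genes. Of these, 3 rose, 6 fell and 31 did not pass limma, beside 2.54% of all genes that rose and 2.36% that fell, with a median log2 fold change of -0.05 beside 0.01 over all probe sets. The list was drawn up with earlier results of these data known, so nothing is read from this count. The reference limit was exceeded in at least 1 group by 29 of the 40. IQGAP1, a scaffold of the actin cortex, and AHNAK, a large scaffold that S100A10 and annexin A2 bind, did not pass on their brightest probe set (-0.17 and -0.10, adjusted p = 0.156 and 0.421). IQGAP1 fell on 2 other probe sets by 0.35 and 0.57 (adjusted p = 0.00631 and 0.00349) and AHNAK on another by 0.42 (adjusted p = 0.0179). IQGAP1 and AHNAK were named after their values were seen. Counted on any of their 79 probe sets, 11 of the 40 genes passed. The share of all genes that pass on any probe set was not computed, so nothing is read from the 11. Among the annexins, membrane-binding partners of several S100 proteins, 2 of 11 fell. ANXA1, the partner of S100A11, had 12.05, 12.09 and 12.10 in SH3GL2 cells, against 12.32, 12.40 and 12.36 in empty vector cells, a log2 fold change of -0.28 (SE 0.05, adjusted p = 0.00308 from limma). ANXA3 had 8.36, 8.30 and 8.38 in SH3GL2 cells, against 8.87, 8.87 and 8.97 in empty vector cells (-0.56, SE 0.07, adjusted p = 4.58e-04). Neither gene's groups overlapped. ANXA2, the partner of S100A10, had means of 14.35 in SH3GL2 cells and 14.40 in empty vector cells (-0.05, SE 0.04, adjusted p = 0.537), and its 3 probe sets gave -0.04 to -0.06. Like S100A6, it is near the top of the scale. ANXA1 did not pass without an intensity trend (adjusted p = 0.0660) or in the analysis of variance (adjusted p = 0.0752).

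Among the 19 intracellular partners 2 rose and 3 fell. EZR, encoding ezrin, the membrane-actin linker that S100P binds, had 10.81, 10.81 and 10.57 in SH3GL2 cells, against 11.24, 11.24 and 11.04 in empty vector cells (log2 fold change -0.44, SE 0.08, adjusted p = 0.00505 from limma). It passed as lower on 2 of its 5 probe sets. Another EZR probe set, with means of 10.78 in both groups, had -0.003 (adjusted p = 0.989). A further one above the reference limit had -0.08 (adjusted p = 0.657). The tropomyosin genes TPM1 and TPM4, of a family that S100A2 binds, fell by 0.24 and 0.28 (adjusted p = 0.0240 and 0.0397), the first on 3 of 4 probe sets and the second on both, while TPM2 had -0.10 (adjusted p = 0.392). MYH10, a non-muscle myosin heavy chain, rose by 0.26 (adjusted p = 0.0439), but its other probe set, also above the reference limit, had 0.09 (adjusted p = 0.784). MYH9, the heavy chain that S100A4 binds, had 10.37, 10.44 and 10.50 in SH3GL2 cells, against 10.70, 10.60 and 10.68 in empty vector cells (-0.22, SE 0.06, adjusted p = 0.0564). PLA2G4A, the phospholipase that S100A10 inhibits, rose by 0.63 (adjusted p = 0.00979) at means below the reference limit. CACYBP had 0.04 (SE 0.05, adjusted p = 0.792). EZR, TPM1, TPM4, MYH10 and PLA2G4A were named after their values were seen.

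These calls were unequal in firmness. For MYH10, leaving out any 1 of the 6 arrays ended the call (adjusted p = 0.0706 to 0.147). TPM4 lost it without each array but SH3GL2 replicate 2 (0.0896 to 0.203), TPM1 without SH3GL2 replicate 3 or empty vector replicate 2 or 3 (0.0556 to 0.143) and PLA2G4A without SH3GL2 replicate 3 (0.0651). MYH10 also lost it under quantile normalization (0.0588) and with arrays centred on their medians (0.0698), and MYH9 passed under quantile normalization (0.0375). ANXA1, ANXA3, EZR, IL1A and SYT1 held their calls without any 1 array, each on its brightest probe set. The count of 9 was 5 without SH3GL2 replicate 3, 6 without empty vector replicate 2 or 3, 5 without an intensity trend and 1, ANXA3, in the analysis of variance.

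Of the 7 receptors 0 passed limma, beside 4.90% of all genes on 1 probe set each. The analysis of variance called 0 of them, and 1, AGER, had an unadjusted p under 0.05 from limma. AGER had 6.87, 6.92 and 6.95 in SH3GL2 cells, against 6.75, 6.76 and 6.51 in empty vector cells, a log2 fold change of 0.24 (SE 0.10, adjusted p = 0.223 from limma), and TLR4 had -0.17 (SE 0.12, adjusted p = 0.577). AGER and TLR4 were under the reference limit in either group. BSG, NPTN, MCAM and ALCAM, which extracellular S100A8 and S100A9 can bind, lay above it, with -0.10, -0.09, -0.14 and -0.08.

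Of the 3 genes whose products leave the cell with S100A13, IL1A rose and SYT1 fell. IL1A, encoding interleukin 1 alpha, had 11.01, 10.34 and 10.92 in SH3GL2 cells, against 9.78, 9.76 and 9.95 in empty vector cells (log2 fold change 0.93, SE 0.13, adjusted p = 0.00128 from limma). Its other probe set, with signals of 4.71 to 4.95 in SH3GL2 cells and 4.80 to 5.13 in empty vector cells, had -0.09 (adjusted p = 0.785). Replicate 2 was the lowest SH3GL2 array for IL1A and the highest for S100A2. SYT1, a calcium sensor of vesicle release, had 6.62, 6.29 and 6.64 in SH3GL2 cells, against 7.22, 7.04 and 7.31 in empty vector cells (-0.67, SE 0.11, adjusted p = 0.00378), and its other probe set fell by 0.62 (adjusted p = 0.0363). The SYT1 mean was below the reference limit in SH3GL2 cells (6.52) and just above it in empty vector cells (7.19). Its other probe set was below the limit in both groups. FGF1 had 0.10 (SE 0.09, adjusted p = 0.696), with both means below the limit.

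**Figure D4:**
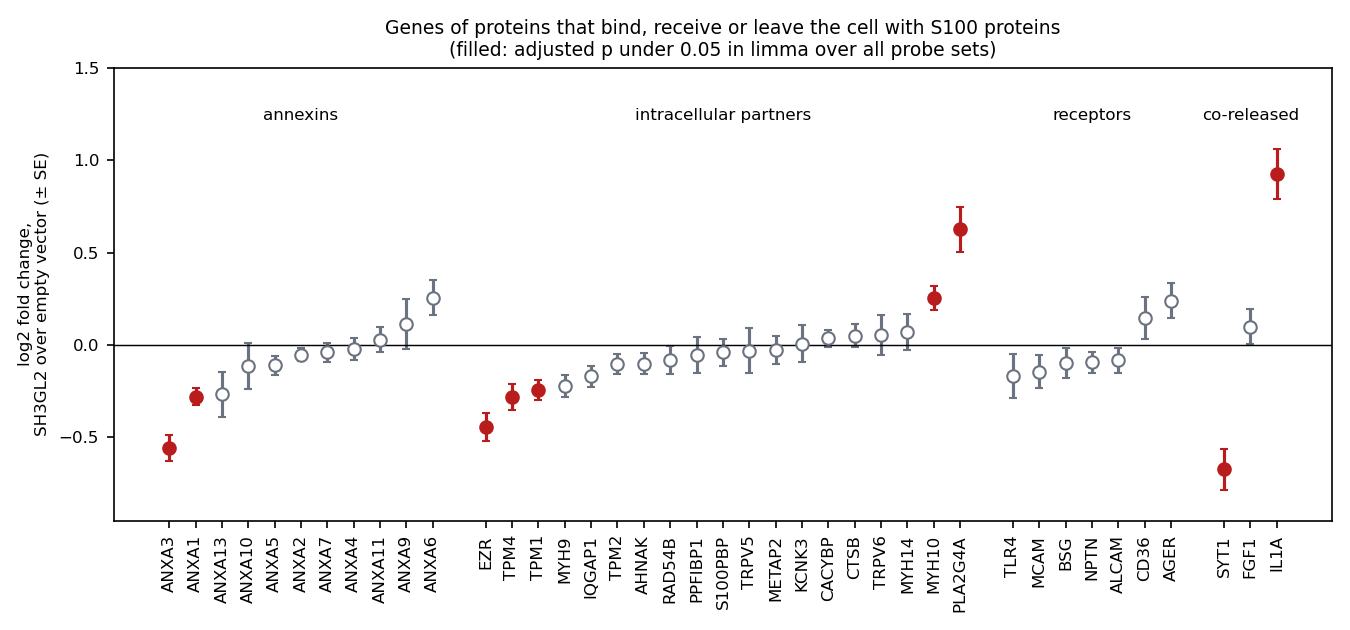
Log2 fold change (SH3GL2 over empty vector) with its SE for the 40 genes of S100 partners, grouped by role and ordered by value within each group. Filled points passed limma at an adjusted p under 0.05: ANXA3, ANXA1, EZR, TPM4, TPM1 and SYT1 on the lower side, and MYH10, PLA2G4A and IL1A on the higher side.

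Transcription factors known to act on S100 genes, and their cofactors, were measured as 16 genes, of which 1 rose and 0 fell in limma, beside 2.54% and 2.36% of all genes (0 by the analysis of variance, and with an unadjusted p under 0.05 4 were higher and 2 lower). CEBPD, of the C/EBP family that drives S100A8 and S100A9 in myeloid cells, rose by 0.33 (SE 0.08, adjusted p = 0.0298) and by 0.64 on its other probe set, below the reference limit (adjusted p = 0.00220). It lost the first call without SH3GL2 replicate 1 or 3 or empty vector replicate 1 or 2 (adjusted p = 0.0670 to 0.143). CTNNB1, encoding beta-catenin, and TCF7L2, its partner at TCF sites, had -0.03 and -0.04 (adjusted p = 0.799 and 0.908), and LEF1 had -0.20 (adjusted p = 0.218).

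Calcium-binding proteins of the EF-hand type outside the S100 family include calmodulin and the calpains. Of 31 such genes, 0 passed limma on their brightest probe set, beside 4.90% of all genes on 1 probe set each. By the analysis of variance 0 passed, and 8 had an unadjusted p under 0.05 from limma. The median log2 fold change was -0.03. CALU, encoding calumenin of the secretory pathway, fell on another of its probe sets by 0.38 (adjusted p = 0.0174) and on a further one by 0.25 (adjusted p = 0.0450), and was named after its values were seen.

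The chromosome around the S100 genes was followed through 31 other genes within 1 Mb of the run from S100A9 to S100A1. Of these 1 rose and 0 fell in limma, beside 2.54% and 2.36% of all genes. The analysis of variance called 0, and with an unadjusted p under 0.05 from limma 6 were higher and 2 lower. The gene that rose was IL6R, encoding the interleukin 6 receptor, with 7.34, 7.91 and 7.39 in SH3GL2 cells, against 6.91, 7.02 and 6.97 in empty vector cells (log2 fold change 0.58, SE 0.13, adjusted p = 0.0247 from limma). The empty vector mean of 6.97 was below the reference limit. IL6R lost that call without any 1 of the empty vector arrays (adjusted p = 0.0635 to 0.0852). Over the 31 neighbours the median was 0.06 on the log2 scale, and 16 of them exceeded the reference limit in at least 1 group. The genes of the epidermal differentiation complex encode cornified envelope proteins and lie beside the S100 genes. They gave 0 calls of 11 in limma, beside 4.90% of all genes on 1 probe set each. By the analysis of variance 0 were called, and 1, SPRR1B, had an unadjusted p under 0.05 from limma. None of the 11 exceeded the reference limit in either group, and the share called among genes under it was not computed. Some of them are also among the 31 neighbours.

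Over 9731 probe sets of single genes that exceeded the limit in at least 1 group, IGFBP2, KAZN and NEO1 were most like S100A2, by the root mean square difference of their centred log2 signals over the 6 arrays (0.13, 0.17 and 0.21). The pattern matched is the difference for which S100A2 and S100A4 were chosen, so the likeness is a description. KAZN and NEO1 exceeded the limit in SH3GL2 cells only, with empty vector means of 6.72 and 6.62. IGFBP2, an insulin-like growth factor binding protein, had 8.36, 8.55 and 8.43 in SH3GL2 cells, against 7.16, 7.35 and 7.21 in empty vector cells, and replicate 2 was the highest array of each group, as for S100A2. Most like S100A4 were the Wnt receptor gene FZD7, the collagen gene COL5A1 and, on 1 of its probe sets, THBS1, encoding thrombospondin (0.06, 0.07 and 0.08). FZD7 had 7.21, 7.48 and 7.30 in SH3GL2 cells, against 8.08, 8.34 and 8.26 in empty vector cells, again with replicate 2 the highest array of each group.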

How the data were processed

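The authors put total RNA of SUM-159 cells on Affymetrix GeneChip arrays and used GCOS to scan them. MAS5 is named in the submitters' notes, with no version. Deposited values were log2 signals, rounded to 2 decimals, and any scaling between arrays is not given in the sources used here. The values were analysed as they are, neither filtered nor rescaled. The 62 controls among the 22277 probe sets were dropped, and of the rest 19064 had 1 gene symbol, 1043 several and 2108 none. All 6 samples were mapped by their titles. The symbols of the 10 S100 genes were found in the RefSeq table (GRCh38.p14), which gave positions and upstream sequences.

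The comparison of SH3GL2 with empty vector used the two-sided moderated test of limma 3.58.1 in R 4.3.3, in which eBayes took an intensity trend. P-values were adjusted by Benjamini-Hochberg across the 22215 probe sets, and calls are those under 0.05. Standard errors are those of limma, except for ratios within arrays, where they come from the spread of the arrays. For gene lists, each gene was counted on the probe set with the highest mean over the 6 arrays. The members and lists were chosen with earlier results of these data known, so the counts within lists are descriptions. Named genes are all 10 S100 genes, the other S100 genes on the array, up to 4 genes of each list with the smallest adjusted p under 0.05, 6 partners fixed by name, and the 3 genes most like S100A2 and S100A4, with exceptions stated. Some genes of the lists are not reported here. The scripts were tested on simulated data. With 3 arrays per group an exact permutation test cannot give a p under 0.1, and precision is limited by the number of arrays and by signal over background, with 48.2% of probe sets above the reference limit on average.

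Alternatives were quantile normalization, centring arrays on their medians, 16 added before the logarithm, a floor at the reference median, the brighter probe sets only, eBayes with a robust prior or without a trend, an ordinary analysis of variance, a replicate block, leaving out each array, and counting a gene on any of its probe sets. Python 3.11.15 with matplotlib 3.10.9 drew the figures.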

Additional observations from a re-analysis of the deposited data

How the results depend on the processing

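The floor and the replicate block leave the values of S100A2 and S100A4 as they are by construction. Quantile normalization, centring and adding 16 gave log2 fold changes of 1.38 to 1.40 for S100A2 and -0.98 to -0.96 for S100A4. Leaving out 1 array gave log2 fold changes of 1.26 to 1.47 for S100A2 and -1.02 to -0.90 for S100A4, and differences of 2.28 to 2.43. Of the counts, the S100 probe sets called were 0 in the analysis of variance and 2 to 3 without 1 array. S100P lost its limma call with 16 added (adjusted p = 0.0526), with the floor (0.108) and without a trend (0.0992). It also lost it without SH3GL2 replicate 1 or 3 (0.112 and 0.216) or empty vector replicate 2 or 3 (0.182 and 0.128). S100A2 and S100A4 held their calls in each of these limma settings. The partners called, 9 of 40, were 5 without an intensity trend, 1 in the analysis of variance and 5 to 8 without 1 array. The 1 transcription factor was 2 under quantile normalization, among the brighter probe sets and with a robust prior, 0 with the floor, without a trend and in the analysis of variance, and 0 to 2 without 1 array. The 1 neighbour on chromosome 1 was 0 with the floor, without a trend and in the analysis of variance, and 0 to 2 without 1 array. The 0 EF-hand genes became 1 with a robust prior and 1 on any probe set, and were 0 to 1 without 1 array. The cause of these shifts was not tested. Over all probe sets 926 calls became 597 without a trend, 77 in the analysis of variance, 480 without SH3GL2 replicate 3 and 518 without empty vector replicate 2.

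Arrays of the same replicate number had residual correlations from -0.01 to 0.15, above 0.1 in 2 of 3 pairs, and for 4 of 6 arrays the best correlation was with an array of that same number, a hint from the data and not the design. With the replicate block 1079 probe sets were called, with 4 transcription factors (3 higher and 1 lower), 2 chromosome 1 neighbours, and the counts of S100 probe sets (3) and partners (9) as without it. Signal over background limits S100A8, S100A9 and the other S100 genes outside the 10, which stayed under the reference limit.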
